A study of Mus musculus with 16 samples.

Results

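The genes described here are 9 factors of the primitive streak and of early mesoderm, namely T, Tbx6, Mixl1, Gsc, Evx1, Mesp1, Msgn1, Foxc1 and Kdr, chosen by name from the 27807 genes of the deposited expression table. All 9 were found, and each was followed through the 8 groups of the study. The RNA came from mouse embryonic stem (ES) cells and from embryoid bodies, the floating aggregates that ES cells form when they differentiate, and was sequenced as poly-A libraries. Wild-type (WT) libraries were set beside libraries labelled Taf4a-/- (KO), which carry on both alleles a deletion of exons of Taf4a, the gene of a subunit of the general transcription factor TFIID. In each genotype, ES cells grown with leukaemia inhibitory factor on growth-arrested fibroblast feeder cells (ES) were compared with embryoid bodies before retinoic acid was given (EB4), after its first day (EB5) and at the end of the treatment (EB8, which the labels call neural precursor cells). The 8 groups had 2 libraries each, replicates 1 and 2, and the study used 2 lines of each genotype, derived from blastocysts of a cross between heterozygous mice. Which line gave which library was not stated. A p-value here thus rests only on the spread between the 2 libraries of a group, which may be that between lines. In the main fit that spread was pooled for each gene over the 8 groups. A wide spread at 1 stage therefore also enters the tests of that gene at the other stages.

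In the gastrulating embryo, epiblast cells pass through the primitive streak, lose their epithelial form and become mesoderm or definitive endoderm. Nodal, Wnt and bone morphogenetic protein signals induce the streak, where T (brachyury) and Mixl1 are among the first transcription factors to appear, and later factors divide the emerging mesoderm into paraxial, lateral, cardiac and vascular parts. Embryoid bodies can form such cells, while retinoic acid is used to direct the aggregates to neural fates.

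Depth was between 22442118 and 40711826 reads in genes per library, and 1 read was worth between 0.715 and 1.28 normalised counts. Every ES library held at least 32631020 reads and every embryoid body library at most 27685306, so that stage and depth cannot be told apart in a comparison of ES with EB4. Taf4a itself ranged from 1591 to 1960 normalised counts in WT and from 1973 to 2400 in KO. Since whole-gene counts include the exons that the allele keeps, this gene does not check the labels. Replicate 2 of WT ES stood apart from the other WT libraries, with a median log2 level of X-linked genes 0.47 above the mean of all libraries and 0 normalised counts of the Y-linked gene Ddx3y against 1236.9 in replicate 1, so that results at ES are also given without it. Replicate 2 of KO was also high for X-linked genes, by 0.35 to 0.54 at the 4 stages. Ddx3y was at 173.6 to 572.3 normalised counts in the WT embryoid body libraries and at 0 to 35.9 in all KO libraries. Eif2s3y, also Y-linked, was at 840.7 to 1322.8 and at 1.9 to 92.1 in the same libraries. Their level thus ran with genotype in the embryoid bodies, where Y-linked content and genotype cannot be told apart. Its part in the differences between genotypes was not tested. Shifts of whole chromosomes were further seen for chromosome 8 in replicate 1 of the WT embryoid bodies (0.40 to 0.41), for chromosome 11 in replicate 1 of KO (0.18 to 0.28) and for chromosome 6 in KO ES replicate 1 (-0.25). No member lies on chromosome 8, 11 or X, and Evx1 lies on chromosome 6. The summed cell type markers followed the EB8 label in WT, where the neural precursor markers (Pax6, Pou3f2 and Tubb3) were at 12234 to 12910 normalised counts and the ES cell markers (Pou5f1, Nanog and Zfp42) at 552 to 697. In the KO libraries at EB8 the neural markers were at 646 to 1449 and the ES cell markers at 12190 to 13880, so that these markers go against the label there.

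The promoters of 8 of the 9 genes were found in RefSeq (table build GRCm38.p6) and placed on build NCBI37 by exact match. Those of T, Evx1 and Foxc1 are shown, because these 3 genes carry the changes on the first day of retinoic acid that passed the test. Each sequence is the 250 bases before the RefSeq start, on the strand of the gene, and capitals mark motifs found on either strand (AGGTGT, the core of the T-box site, and CTTTGA, the core of the TCF/LEF site through which Wnt signals act). No motif overlapped another in these sequences.
T promoter, chr17:8627038-8627287, plus strand: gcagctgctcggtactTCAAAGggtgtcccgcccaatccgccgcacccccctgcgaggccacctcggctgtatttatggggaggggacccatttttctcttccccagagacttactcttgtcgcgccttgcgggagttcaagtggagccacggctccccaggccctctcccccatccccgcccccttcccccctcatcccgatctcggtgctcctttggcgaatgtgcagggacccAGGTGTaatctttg
Evx1 promoter, chr6:52263242-52263491, plus strand: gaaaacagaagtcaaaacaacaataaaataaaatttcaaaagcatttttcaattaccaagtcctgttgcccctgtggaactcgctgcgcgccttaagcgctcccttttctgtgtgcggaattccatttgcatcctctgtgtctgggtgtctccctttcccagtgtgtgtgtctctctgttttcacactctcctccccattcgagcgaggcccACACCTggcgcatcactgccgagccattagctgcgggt
Foxc1 promoter, chr13:31898265-31898514, plus strand: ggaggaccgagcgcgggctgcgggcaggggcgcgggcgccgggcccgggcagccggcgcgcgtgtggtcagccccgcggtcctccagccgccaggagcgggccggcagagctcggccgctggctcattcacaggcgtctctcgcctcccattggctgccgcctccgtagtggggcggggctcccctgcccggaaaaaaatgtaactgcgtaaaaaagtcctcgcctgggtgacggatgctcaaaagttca

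The T-box core was found in 3 of the 8 promoters (T, Evx1 and Mesp1) and in 12.0% of the promoters of all 27025 genes of the RefSeq table. In T it began 14 bases before the start, and in Evx1 38 bases before the start on the opposite strand. The TCF/LEF core was found in 3 of 8 (T, Mesp1 and Msgn1; 14.0% of all genes), and the TATA box TATAAA in 2 (Tbx6 and Gsc; 13.0%). The letters AGGTCA, a core of the retinoic acid receptor site, were in none of the 8 windows and in 13.8% of all. The Foxc1 window held none of the 4 motifs and had the highest share of G and C bases of the 8, at 70.8% against 49.6% in Evx1 and 62.8% in T. These matches describe the letters of the windows and not sites in use.

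The level of the 9 genes spanned a wide range. Per kilobase of exon, the highest library reached 349 normalised counts for T, 176 for Foxc1, 143 for Mixl1, 111 for Kdr and 59.1 for Gsc, while Tbx6, Mesp1, Evx1 and Msgn1 did not exceed 28.8, 28.4, 27.2 and 17.1. Mesp1 (73 reads in all 16 libraries) and Msgn1 (30 reads) had a mean under 10 normalised counts and were not tested, so that 7 members entered the test, limma on log2(normalised count + 1) with Benjamini-Hochberg adjustment over 16124 genes and a threshold of 0.05. In bulk RNA, fewer cells of a type and less RNA per cell cannot be told apart.

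**Figure D1:**
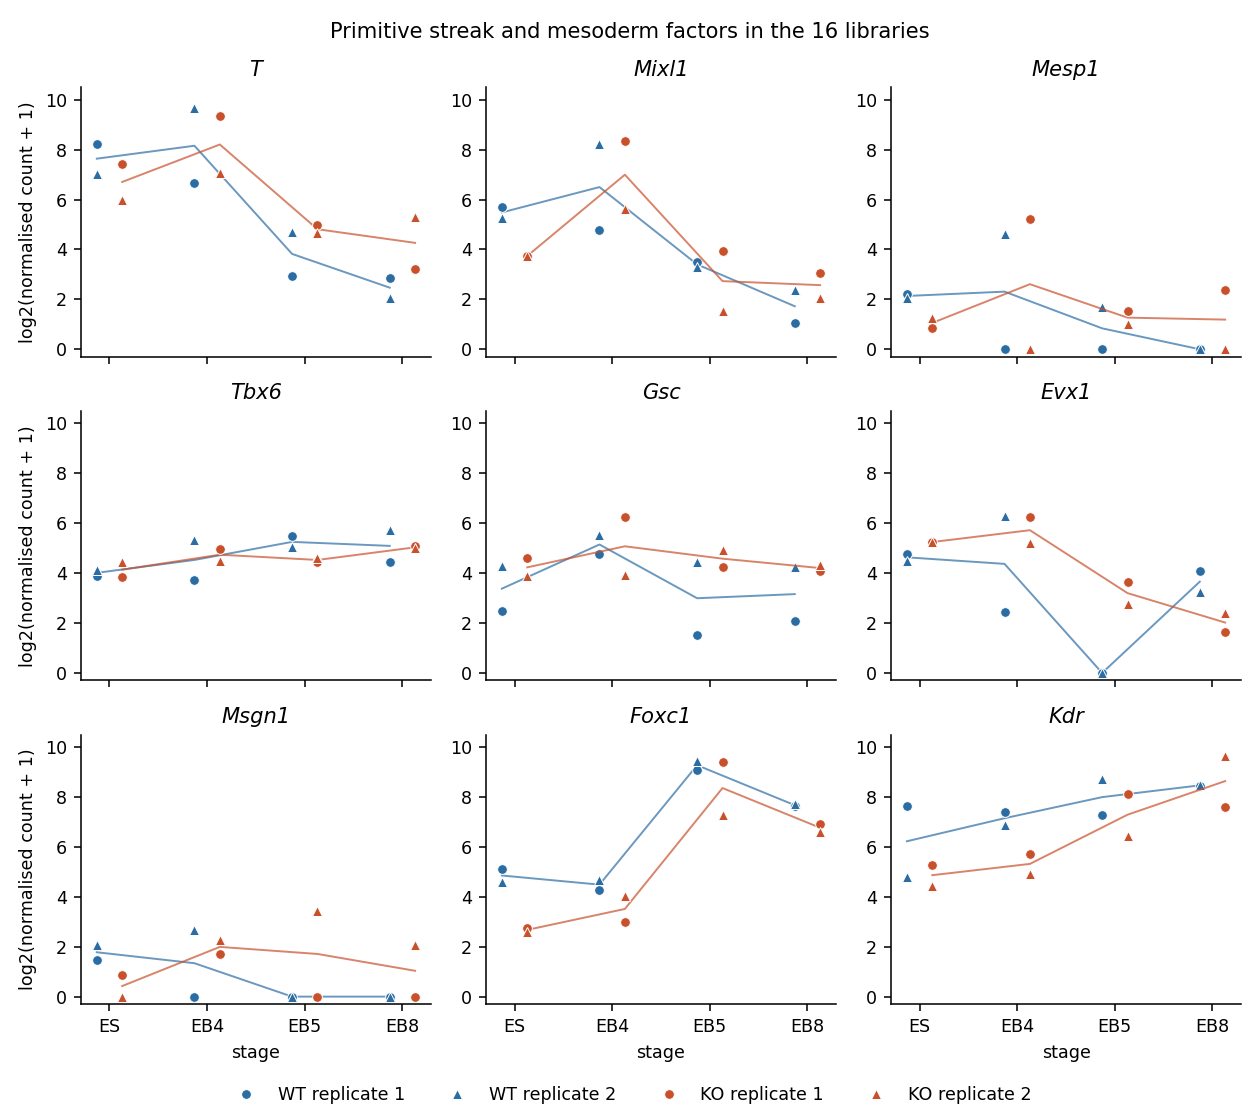
Level of each of the 9 genes as log2(normalised count + 1) on the vertical axis in every library, by stage on the horizontal axis, with WT in blue, KO in red, circles for replicate 1 and triangles for replicate 2, and lines through the mean of the 2 libraries. T and Mixl1 are highest and most spread at EB4, Foxc1 is highest at EB5, and Evx1 is at 0 in both WT libraries at EB5.

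T encodes brachyury, the T-box factor that marks the streak and nascent mesoderm (ENSMUSG00000062327, chromosome 17, 8627288 to 8635361, plus strand). In WT it was at 302.2 and 130.0 normalised counts at ES in replicates 1 and 2, at 99.7 and 807.4 at EB4, at 6.6 and 25.3 at EB5 and at 6.3 and 3.2 at EB8. In KO it was at 169.4 and 62.9 at ES, 644.9 and 134.0 at EB4, 30.3 and 24.2 at EB5 and 8.4 and 38.3 at EB8. Both genotypes were thus highest at EB4, the ES and EB4 libraries overlapped, and every EB5 and EB8 library lay below every ES and EB4 library. The EB5 and EB8 libraries overlapped when both genotypes were taken, and in WT both EB8 libraries were below both EB5 libraries.

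T fell from EB4 to EB5 in WT, with a log2 change of -4.34 (SE 1.07, limma adjusted p = 0.0451). The corresponding change in KO was -3.39 (SE 1.07, adjusted p = 0.129), and the difference of the changes was 0.95 (95% interval -2.35 to 4.24). The WT call was close to the threshold and was lost in 13 of 26 alternatives, with adjusted p-values from 7.1e-05 to 0.241 and a change between -5.84 and -2.84 when 1 library was left out. Between genotypes T gave log2 changes of KO against WT of -0.93 at ES (95% interval -3.27 to 1.40; -1.54 without WT ES replicate 2), 0.05 at EB4 (-2.28 to 2.38), 0.99 at EB5 (-1.34 to 3.33) and 1.80 at EB8 (-0.53 to 4.14). The adjusted p at EB8 was 0.251, although both KO libraries lay above both WT libraries.

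Tbx6, a T-box factor of paraxial mesoderm (ENSMUSG00000030699, chromosome 7, 133924997 to 133929074, plus strand), had the narrowest range of the tested members, 12.1 to 51.9 normalised counts. It was at 13.7 and 16.7 in WT at ES, 12.1 and 39.7 at EB4, 43.3 and 31.8 at EB5 and 21.0 and 51.9 at EB8, and in KO at 13.3 and 20.7, 30.4 and 21.7, 20.9 and 23.3, and 32.7 and 30.9 at the same stages. The 2 KO values at EB5 lay below the 2 WT values, and at the other stages the genotypes overlapped. The log2 change of KO against WT was -0.73 at EB5 (95% interval -2.03 to 0.57, limma adjusted p = 0.527), and at ES, EB4 and EB8 it was 0.13, 0.21 and -0.06 (0.27 at ES without WT ES replicate 2).

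Mixl1, a paired-type homeobox factor of the streak (ENSMUSG00000026497, chromosome 1, 182623174 to 182627165, minus strand), had a profile like that of T. Its WT values were 51.0 and 37.5 normalised counts at ES, 26.3 and 299.2 at EB4, 10.4 and 8.8 at EB5 and 1.1 and 4.2 at EB8. Its KO values were 12.5 and 12.2 at ES, 328.3 and 48.5 at EB4, 14.2 and 1.9 at EB5 and 7.4 and 3.2 at EB8. At ES both KO libraries were below both WT libraries, and the genotypes overlapped at every later stage. The log2 change of KO against WT at ES was -1.75 (SE 1.15, limma adjusted p = 0.608; -1.97 without WT ES replicate 2), and at EB4, EB5 and EB8 it was 0.50, -0.66 and 0.86. From EB4 to EB5 every library of both genotypes was lower, and the log2 change was -3.10 in WT (SE 1.15, adjusted p = 0.200) and -4.25 in KO (SE 1.15, adjusted p = 0.0783), neither of which passed. The KO change passed with a block for the replicate number within genotype (limma adjusted p = 0.0275), with DESeq2 (adjusted p = 0.00261) and without either WT EB4 library, and the WT change passed with DESeq2 only (adjusted p = 0.00704).

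Gsc (goosecoid, ENSMUSG00000021095, chromosome 12, 105709419 to 105711537, minus strand), a homeobox factor of the anterior streak and organiser, was low throughout. WT libraries held 4.6 and 18.3 normalised counts at ES, 26.3 and 45.0 at EB4, 1.9 and 20.9 at EB5 and 3.2 and 18 at EB8, and KO libraries 23.2 and 13.6, 74.8 and 14.0, 18 and 29.1, and 15.8 and 19.2. Genotypes overlapped at every stage. The log2 change of KO against WT was 0.86 at ES (1.76 without WT ES replicate 2), -0.07 at EB4, 1.59 at EB5 and 1.05 at EB8, with 95% intervals that all held 0.

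Evx1, an even-skipped homeobox factor of the posterior streak (ENSMUSG00000005503, chromosome 6, 52263492 to 52268372, plus strand), lost all its reads in WT on the first day of retinoic acid. In WT it was at 26.4 and 21.5 normalised counts at ES, 4.4 and 78.3 at EB4, 0 and 0 at EB5 and 15.8 and 8.5 at EB8. In KO it was at 37.4 and 36.5 at ES, 74.8 and 35.7 at EB4, 11.4 and 5.8 at EB5 and 2.1 and 4.3 at EB8. The KO libraries lay above both WT libraries at ES and EB5 and below both at EB8, and at EB4 the genotypes overlapped.

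In WT, Evx1 fell from EB4 to EB5 with a log2 change of -4.37 (SE 0.97, limma adjusted p = 0.0269), which against a floor of 3 reads per library is at least 13.5-fold lower. That bound falls to 1.43-fold without WT EB4 replicate 2, the library with 78.3, and the log2 change then is -2.43. It rose again from EB5 to EB8, by 3.65 on the log2 scale (SE 0.97, limma adjusted p = 0.0322) or at least 3.96-fold. The first call ended in 5 of 25 alternatives, among them the omission of WT EB4 replicate 2 or of either WT EB5 library, and its adjusted p ran from 0.000516 to 0.282. The second call ended in 8 of 25 alternatives, among them edgeR, a pseudocount of 5 and the omission of any 1 of the 4 WT libraries it compared. In KO the change from EB4 to EB5 was -2.52 (SE 0.97, adjusted p = 0.217). The KO to WT difference at EB5 was 3.20 on the log2 scale (SE 0.97, limma adjusted p = 0.0846) and at least 2.81-fold against the floor. It passed with DESeq2, with a pseudocount of 0.1 and without either WT EB4 library, and its adjusted p ran from 0.0153 to 0.336. At EB8 the change was -1.64 (95% interval -3.75 to 0.48), and at ES and EB4 0.61 and 1.35 (0.47 at ES without WT ES replicate 2). The difference between genotypes in the change from EB5 to EB8 was -4.84 (95% interval -7.83 to -1.85, limma adjusted p = 0.166), and that in the change from EB4 to EB5 was 1.85 (-1.14 to 4.84).

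Mesp1 and Msgn1 are basic helix-loop-helix factors of early cardiac and cranial mesoderm and of presomitic mesoderm. Mesp1 (ENSMUSG00000030544, chromosome 7, 86937127 to 86938674, minus strand) had WT values of 3.6 and 3.2 normalised counts at ES, 0 and 23.6 at EB4, 0 and 2.2 at EB5 and 0 in both libraries at EB8. In KO it was at 0.8 and 1.4, 36.2 and 0, 1.9 and 1.0, and 4.2 and 0 at the same stages. Its reads were thus mostly in 1 library of each genotype at EB4, replicate 2 in WT and replicate 1 in KO. Msgn1 (ENSMUSG00000047002, chromosome 12, 11215188 to 11215754, minus strand) did not exceed 9.7 normalised counts, in KO EB5 replicate 2, and was at 0 in 8 of 16 libraries, among them all 4 WT libraries at EB5 and EB8. Neither gene was tested, and no change of them is reported.

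Foxc1, a forkhead factor of paraxial and other mesoderm and of neural crest derivatives (ENSMUSG00000050295, chromosome 13, 31898515 to 31902504, plus strand), changed in the direction opposite to T. In WT it was at 33.7 and 23.1 normalised counts at ES, 18.6 and 24.7 at EB4, 544.8 and 700.6 at EB5 and 198.5 and 207.5 at EB8. In KO it was at 5.8 and 5.0 at ES, 7.0 and 15.3 at EB4, 684.5 and 156.1 at EB5 and 121.3 and 95.9 at EB8. In both genotypes the order was EB5, then EB8, then the early stages, with no overlap between these 3 levels. KO was below WT without overlap at ES, EB4 and EB8, and at EB5 the genotypes overlapped.

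Foxc1 rose from EB4 to EB5 by 4.79 on the log2 scale in WT (SE 0.59, limma adjusted p = 0.000589) and by 4.84 in KO (SE 0.59, limma adjusted p = 0.000904). The rises differed by 0.06 on the log2 scale (95% interval -1.76 to 1.87). The WT call held in all 26 alternatives, and the KO call in all but a fit of only the compared groups (adjusted p = 0.0917). From EB5 to EB8 the log2 change was -1.60 in WT (SE 0.59, limma adjusted p = 0.111) and -1.59 in KO (SE 0.59, limma adjusted p = 0.263). The change of KO against WT was -2.18 at ES (SE 0.59, limma adjusted p = 0.161), -0.97 at EB4, -0.92 at EB5 and -0.91 at EB8 (adjusted p = 0.360, 0.413 and 0.297). At ES it was -2.44 without WT ES replicate 2 (adjusted p = 0.302), and DESeq2 alone among 25 alternatives called it (adjusted p = 0.0265). The summed level of 8 feeder fibroblast markers was also lower in KO ES. It was at 1039 to 2660 normalised counts in WT ES and 210.0 to 507 in KO ES. Within each genotype, replicate 2 had the higher sum. Foxc1 was at 33.7 in replicate 1 and 23.1 in replicate 2 of WT ES. In KO ES it was at 5.8 and 5, which were 7 reads in each library. The part of these markers in the Foxc1 difference was not tested.

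Kdr, the receptor for vascular endothelial growth factor on vascular and blood progenitors (ENSMUSG00000062960, chromosome 5, 76328852 to 76374483, minus strand), had its highest mean at EB8 in both genotypes. WT libraries held 198.4 and 27.1 normalised counts at ES, 169.9 and 116.9 at EB4, 153.4 and 420.6 at EB5 and 347.6 and 357.9 at EB8. KO libraries held 38.2 and 20.7 at ES, 51.4 and 29.4 at EB4, 279.7 and 86.3 at EB5 and 195.2 and 807.5 at EB8. In WT all neighbouring stages overlapped. In KO the EB5 libraries were above both EB4 libraries, with a log2 change of 1.97 (95% interval -0.0019 to 3.95, limma adjusted p = 0.307) against 0.85 in WT (-1.13 to 2.82). At EB4 both KO libraries were below both WT libraries, with a log2 change of -1.83 (95% interval -3.81 to 0.14, adjusted p = 0.256). At ES, EB5 and EB8 the change was -1.36, -0.70 and 0.17, and at ES it was -2.77 without WT ES replicate 2.

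Across the 7 tested members, none passed the test between genotypes at ES, EB4, EB5 or EB8, where 0%, 6.12%, 4.34% and 22.9% of all tested genes did. At an unadjusted p under 0.05 there was 1 member at ES (Foxc1), 0 at EB4, 1 at EB5 (Evx1) and 0 at EB8, beside 11.4%, 22.7%, 20.7% and 36.0% of all tested genes. edgeR's quasi-likelihood test called 0 members at each stage, and DESeq2 called Foxc1 at ES and Evx1 at EB5. Over all 16124 genes, edgeR called 0, 811, 603 and 3546 at these stages, and DESeq2 476, 2077, 1719 and 4626. Of the 9 genes, those whose KO libraries did not overlap the WT libraries were 1 higher and 4 lower at ES (all tested genes 19% and 20.7%), 0 and 2 at EB4 (25.3% and 26.6%), 1 and 1 at EB5 (26.7% and 28.1%) and 1 and 2 at EB8 (30.4% and 33.5%). The lower genes at ES included Mesp1 and Msgn1, at no more than 3.6 normalised counts in any ES library.

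**Figure D2:**
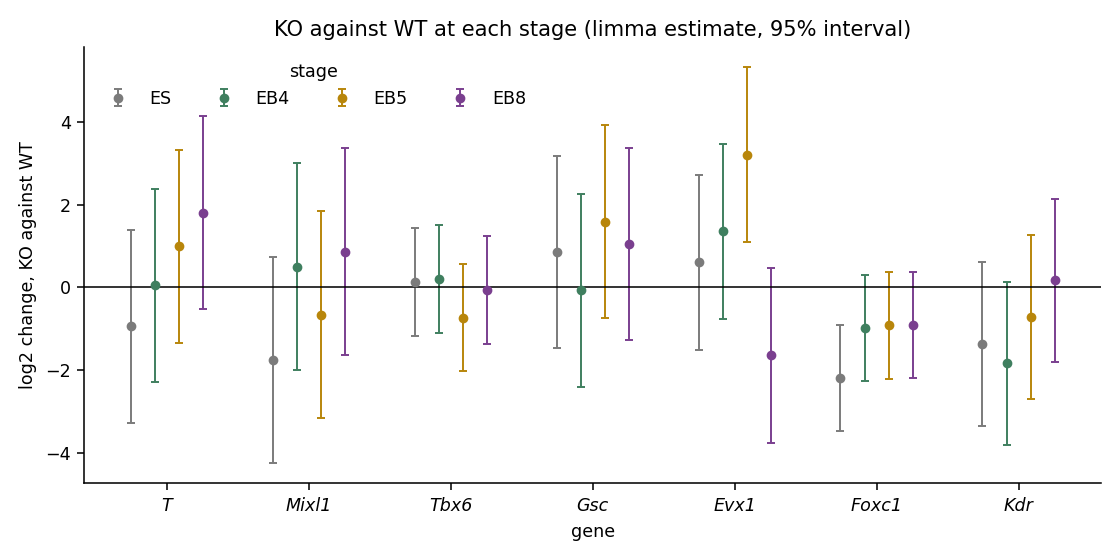
Log2 change of KO against WT on the vertical axis for the 7 tested members, with 1 point for each of the 4 stages and bars for the 95% interval of the limma estimate. Foxc1 lies below 0 at every stage, its interval is clear of 0 at ES only, and Evx1 goes from 3.20 at EB5 to -1.64 at EB8.

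Of the 5 member changes that passed between successive stages, 4 were on the first day of retinoic acid. From EB4 to EB5, 3 of 7 members passed in WT (Foxc1 higher, T and Evx1 lower), where 3.73% of all tested genes did (2.59% higher and 1.14% lower), and 1 of 7 passed in KO (Foxc1), where 2.51% did (1.82% higher and 0.695% lower). The median log2 change of the 7 members was -2.16 in WT and -0.50 in KO, beside -0.01 and 0.01 for all tested genes. Most marker sums also moved on that day. In WT the ES cell markers were at 13461 to 28387 normalised counts at EB4 and 4409 to 6945 at EB5, and the neural markers at 689 to 907 and 3276 to 6728. The endoderm markers were at 251 to 762 and 1034 to 2173, and the fibroblast markers at 900 to 1368 and 1553 to 2237. In KO the ES cell markers were at 30800 to 40358 at EB4 and 16151 to 26054 at EB5, and the neural markers at 1569 to 2065 and 1551 to 1870. Single neural markers went different ways. Pax6 rose, from 234.5 and 130.8 to 2855 and 6135.3 in WT and from 122.7 and 131.4 to 695.9 and 278.3 in KO. Tubb3 fell, from 667.4 and 550.1 to 385.8 and 419.5 in WT and from 1439.3 and 1932.1 to 1168.1 and 1270.3 in KO. Pou3f2 did not exceed 173.5 in these libraries. Tubb3 was also at 4004.6 and 3991 in KO ES. The KO endoderm markers were at 116 to 202 and 497 to 857, and the fibroblast markers at 470 to 568 and 1037 to 1059. Their part in the member changes was not tested. DESeq2 called 4 in WT (T, Mixl1, Evx1 and Foxc1) and 3 in KO (T, Mixl1 and Foxc1), and edgeR 2 (Evx1 and Foxc1) and 1 (Foxc1). Over all 16124 genes, DESeq2 called 1089 and 1017 and edgeR 525 and 365. No member differed between genotypes in this change past the threshold, nor did any of the 16124 genes with limma or edgeR, while 4 did with DESeq2. At an unadjusted p under 0.05 there were 478 genes and 0 members. From ES to EB4 no member passed in either genotype (16.5% of all genes in WT and 3.5% in KO), with 0 members in WT and 1 in KO (Mixl1) at an unadjusted p under 0.05, beside 32.7% and 21.4% of all genes. DESeq2 called Mixl1 there in KO (1690 of all genes), and edgeR called no member. Without WT ES replicate 2, the WT log2 change from ES to EB4 went from 0.52 to -0.09 for T and from 0.92 to -0.49 for Kdr. The other tested members kept their direction. From EB5 to EB8 Evx1 rose in WT, where 10.4% of all genes passed (5.82% higher and 4.62% lower). No member passed in KO (0.738%). Foxc1 had an unadjusted p under 0.05 in both genotypes (24.7% of all genes in WT and 12.8% in KO) and was called in both by DESeq2 (adjusted p = 0.0326 in WT and 0.0227 in KO) but in neither by edgeR. The change from EB5 to EB8 differed between genotypes for no member (0.781% of all genes, 0.0992% higher and 0.682% lower in KO), with Evx1 alone at an unadjusted p under 0.05 and called by DESeq2.

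**Figure D3:**
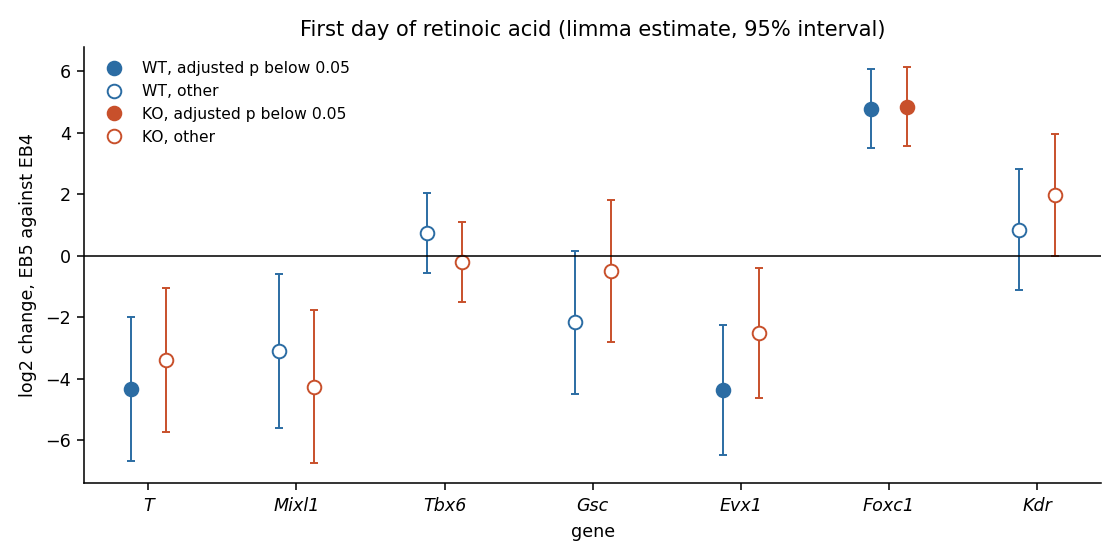
Log2 change from EB4 to EB5 on the vertical axis for the 7 tested members, WT in blue and KO in red, with 95% intervals of the limma estimate and filled points for an adjusted p below 0.05. Foxc1 is near 4.8 in both genotypes, and T, Mixl1 and Evx1 lie between -4.37 and -2.52.

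At EB4 the 2 libraries of a group differed widely for several of these genes. The ES cell, neural and endoderm marker sums moved with that split, while the fibroblast sum was higher in replicate 2 of both genotypes. For the fibroblast markers, replicate 1 of WT EB4 stood at 900 against 1368 for replicate 2. Replicate 1 of KO EB4 stood at 470 against 568 for replicate 2. The ES cell markers were at 28387 normalised counts in replicate 1 and 13461 in replicate 2 of WT and at 30800 and 40358 in KO, and the endoderm markers at 251 and 762 in WT and 202 and 116 in KO. Most of the endoderm sum in WT was Cubn (153.4 and 587.6). The part of these markers in the spread of the members was not tested. In WT, replicate 2 was above replicate 1 for 8 of the 9 genes, all but Kdr (50.4% of all tested genes), and in KO replicate 1 was above replicate 2 for 7 of 9, all but Msgn1 and Foxc1 (replicate 2 was above in 50.9% of all tested genes). Over the 7 tested members the median size of the difference between replicates was 1.64 on the log2 scale in WT EB4, beside 0.35 for all tested genes, and 1.04 beside 0.31 in KO EB4. In WT the difference of replicate 2 from replicate 1 was 3.00 for T, 3.46 for Mixl1, 4.62 for Mesp1 and 3.88 for Evx1. In KO it was -2.26 for T, -2.73 for Mixl1, -5.22 for Mesp1 and -2.33 for Gsc. The values of KO replicate 1 and WT replicate 2 were close for T (644.9 and 807.4 normalised counts), Mixl1 (328.3 and 299.2) and Evx1 (74.8 and 78.3). At the other stages the median difference of the 7 was between 0.43 and 0.86. Replicates have no order, and a comparison of genotypes at EB4 turns on which libraries are in it: without WT EB4 replicate 1 the log2 change of T was -1.45, and without WT EB4 replicate 2 it was 1.55.

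**Figure D4:**
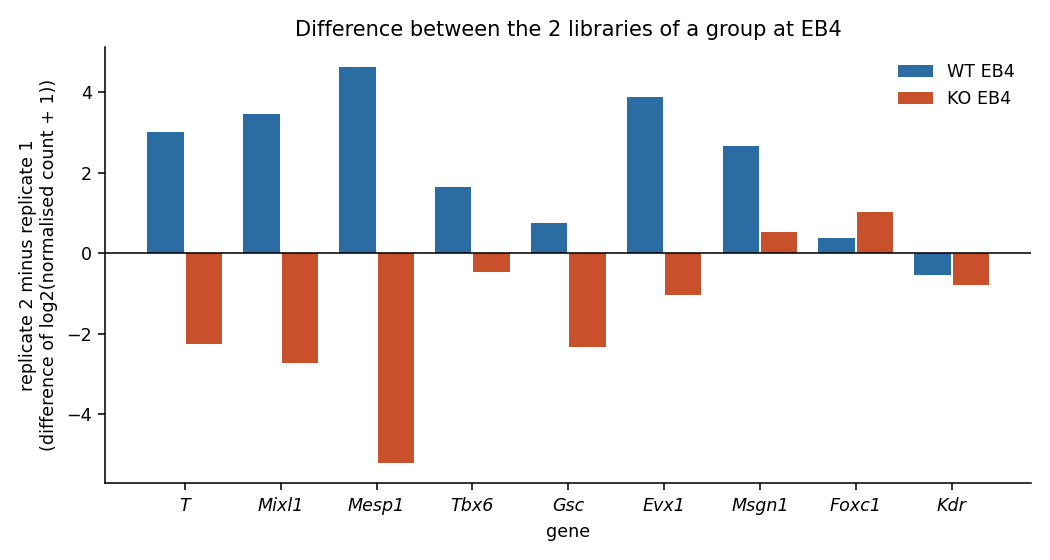
Difference between the 2 libraries of a group at EB4, as replicate 2 minus replicate 1 of log2(normalised count + 1) on the vertical axis, for each of the 9 genes, with WT in blue and KO in red. T, Mixl1, Mesp1, Tbx6, Gsc and Evx1 have a positive bar in WT and a negative bar in KO.

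Over the 16 libraries, T correlated with Mixl1 (Pearson r 0.85) and Evx1 (0.71), and Foxc1 with Kdr (0.74), while Foxc1 was opposed to T (-0.73) and Evx1 (-0.76). Tbx6 had no r above 0.47 with another member. These are descriptions over libraries that share lines and stages. The tested genes most like T were Ppp1r14c (r 0.90), Zfp281 (0.89) and Gars (0.89), and those most like Mixl1 were Fut1 (0.87), T (0.85) and Fgf5 (0.83). For Evx1 they were 5730457N03Rik (0.89), which like Evx1 lies on chromosome 6, Enc1 (0.85) and Btla (0.83). Foxc1 was most like Crabp2 (0.97), Flrt3 (0.95) and Egfem1 (0.95), and Kdr was most like Rhoj (0.94), Snx19 (0.93) and Man1a (0.91). For Gsc (Vps18, 0.81; Slc1a4, 0.79; Gm9164, 0.77) and Tbx6 (Lman2l, 0.84; Zfp236, 0.82; Ip6k1, 0.82) the likeness was lower.

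The other genes of the pathway were taken as 4 lists of 44 genes, of which 41 were tested. Between genotypes none of the 41 passed at ES, and 10 were higher and 5 lower in KO at EB8. At EB4 (2.75% of all genes higher and 3.37% lower), Pecam1 was higher and Cdh5 lower, calls that ended in 19 and 5 of 25 alternatives, and these genes lie on chromosomes 11 and 8, which shifted in replicate 1 of KO and of WT. At EB5 (2.17% each way), Tcf15 was higher and Foxa2 lower. At EB8 10.4% of all tested genes were higher and 12.5% lower. The EB8 differences stand beside those of the ES cell and neural marker sums given above, and the part of these cell types in them was not tested.

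Of 10 streak signals, 4 were higher in KO at EB8 (Nodal, Foxh1, Lefty2 and Tdgf1) and none was lower. Nodal, the ligand that induces the streak, had 33.6 and 65.6 normalised counts in the WT libraries at EB8 against 819.8 and 963.0 in the KO libraries, a log2 change of 4.21 (SE 0.31, limma adjusted p = 1.37e-05). Foxh1, which carries the Nodal signal at its target genes, was at 42.0 and 58.2 against 487.4 and 512.4 (change 3.31, SE 0.35, limma adjusted p = 9.36e-05), and Lefty2, a Nodal antagonist, at 5.3 and 25.4 against 499.0 and 549.7 (change 5.35, SE 0.69, limma adjusted p = 0.000301). In WT, Nodal had been at 1263.8 and 1171.7 and Foxh1 at 2231.1 and 1257.4 at EB5. Such levels were already there at ES in both genotypes. Nodal was at 2358.2 and 2943.6 in WT ES and 2099.4 and 3101.1 in KO ES. Lefty2 was at 2145.3 and 7349.4 in WT ES and 4210.5 and 5031.6 in KO ES. In KO all 4 signals had negative changes from EB5 to EB8, and none passed. The log2 change was -2.51 for Tdgf1, -2.59 for Lefty2 and -0.92 for Nodal (limma adjusted p = 0.102, 0.113 and 0.217). In the KO libraries at EB8, where these 4 signals were higher than in WT, T was at 8.4 and 38.3 and Mixl1 at 7.4 and 3.2. Nodal and Foxh1 also differed between genotypes in the change from EB5 to EB8, by 3.74 and 4.04 on the log2 scale (limma adjusted p = 0.00488 for both), and Dll1 of the paraxial list did so by -2.96 (limma adjusted p = 0.0286).

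Of 9 tested streak and caudal factors, 2 were higher in KO at EB8 (Eomes and Cdx1) and 2 lower (Foxa2 and Lhx1). Eomes, a T-box factor of the streak, had 23.1 and 12.7 normalised counts in WT against 470.6 and 362.2 in KO (log2 change 4.51, SE 0.49, limma adjusted p = 0.000127). Cdx1, a caudal-type factor of posterior tissue, was at 37.8 and 101.6 against 1398.0 and 1156.9 (change 4.33, SE 0.62, limma adjusted p = 0.000565). Foxa2, a factor of endoderm, node and floor plate, was at 575.5 and 339.9 against 40.1 and 38.3 (change -3.46, SE 0.72, limma adjusted p = 0.00513), and had been lower at EB5 too, at 292.6 and 352.5 against 15.2 and 6.8 (change -4.84, limma adjusted p = 0.00900, lost without WT EB5 replicate 2 or KO EB5 replicate 2). The summed endoderm markers were also lower in KO, at 1034 to 2173 normalised counts in WT EB5 and 497 to 857 in KO EB5. At EB8 they were at 2047 to 2360 and 662 to 847. Of these markers, Sox17 and Cubn were lower in KO at both stages. Foxa1 was close at EB5 (354.8 and 494.2 against 348 and 304.5) and lower in KO at EB8 (1563.6 and 1037.6 against 194.1 and 216.2). Sox7 was higher in KO at EB8 (223.7 and 376.9 against 378.8 and 510.3) and overlapped at EB5. Afp and Ttr did not exceed 40.6 in these libraries. The part of these markers in the Foxa2 difference was not tested.

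Of 8 tested paraxial mesoderm genes, 2 were higher in KO at EB8 (Mesp2 and Tcf15) and 3 lower (Dll1, Dll3 and Lfng). Tcf15 was at its highest at ES in both genotypes, and both KO libraries at EB8 lay below every ES library. For Mesp2 the KO libraries at EB8 overlapped those of KO at ES. The lower genes encode Notch ligands and a modifier of Notch that neural precursors also use. Dll1 had 1762.1 and 1301.2 normalised counts in WT against 144.5 and 130.0 in KO (log2 change -3.46, SE 0.38, limma adjusted p = 0.000134), Dll3 at 884.2 and 1027.0 against 69.6 and 22.4 (change -4.55, limma adjusted p = 0.000716) and Lfng at 679.4 and 697.7 against 183.6 and 177.9 (change -1.92, limma adjusted p = 0.00478). Of 14 lateral and vascular genes 2 were higher, the endothelial receptor Tek (53.6 and 46.6 against 238.4 and 328.1, change 2.46, limma adjusted p = 0.000227) and Pecam1, an adhesion molecule of endothelium that ES cells also carry (197.4 and 224.5 against 2235.7 and 1336.9, change 3.03, limma adjusted p = 0.00735). Tek too was at its highest at ES in both genotypes (734.5 and 920.1 in WT, 563.7 and 413.1 in KO), above its KO values at EB8. The other 12 genes of this list, among them Kdr's sister receptor Flt1, did not pass. With any 1 library left out, this count of 2 ran from 1 to 3, being 1 without KO EB8 replicate 1, when Pecam1 did not pass.

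**Figure D5:**
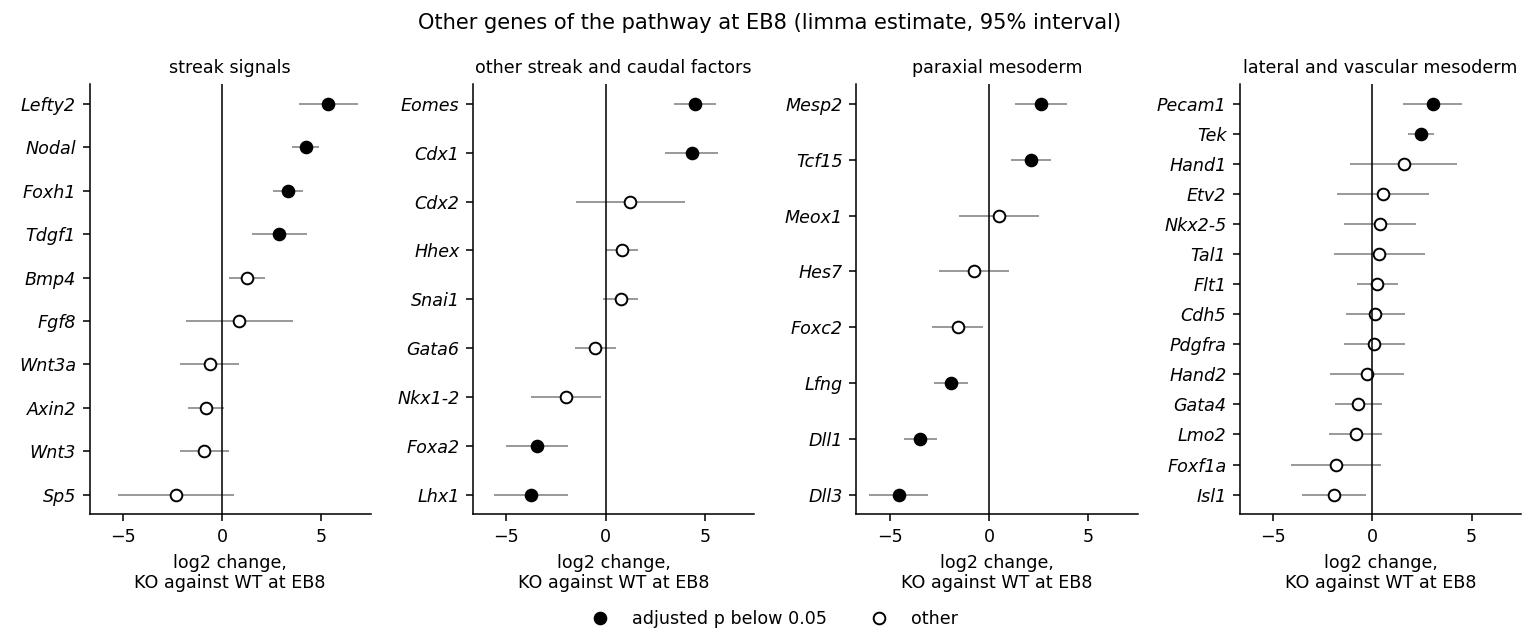
Log2 change of KO against WT at EB8 on the horizontal axis for the tested genes of the 4 pathway lists, 1 panel per list, with 95% intervals of the limma estimate and filled points for an adjusted p below 0.05. Nodal, Lefty2 and Foxh1 lie right of 0, while Dll1 and Dll3 lie left of 0.

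On the first day of retinoic acid, 10 of the 41 list genes rose and 2 fell in WT, and 6 rose and none fell in KO (2.59% and 1.14% of all tested genes in WT, 1.82% and 0.695% in KO). With 1 library left out, the rises ran from 3 to 11 in WT (3 without WT EB5 replicate 2, 5 without WT EB4 replicate 1 or WT EB5 replicate 1) and the falls from 1 to 3 (1 without WT EB4 replicate 1 or WT EB5 replicate 2). In KO the rises ran from 3 to 7 (3 without KO EB4 replicate 2 or KO EB5 replicate 1, 4 without KO EB4 replicate 1 or KO EB5 replicate 2, 5 or more otherwise) and the falls from 0 to 2 (2 without KO EB4 replicate 2, 1 without either WT ES library). The calls of Lfng and Meox1 in KO ended in 14 and 3 of these 16 omissions. Foxc2, the paralogue of Foxc1, rose in both genotypes, from 1.1 and 1.1 normalised counts at EB4 to 247.5 and 356.9 at EB5 in WT, a ratio of 275 with an exact 95% counting interval of 75.8 to 2275 on 2 reads at EB4. In KO it rose from 0 and 1.3 to 127.0 and 66.9, a ratio of 160 (28.3 to 6333, on 1 read at EB4). The limma adjusted p was 3.71e-05 in WT and 0.000181 in KO. Cdx1 rose by 5.05 on the log2 scale in WT (SE 0.62, limma adjusted p = 0.000570) and 6.60 in KO (SE 0.62, limma adjusted p = 0.000129), and Gata6, a factor of endoderm and cardiac mesoderm, by 3.43 and 3.56 (SE 0.48 in both, limma adjusted p = 0.00148 and 0.00184). Meox1, a homeobox factor of somites, rose by 5.66 in WT and 4.89 in KO (limma adjusted p = 0.00425 and 0.0156), and the WT call ended without WT EB5 replicate 2. Foxc2 lies on chromosome 8 and Meox1 on chromosome 11, whose shifts in the libraries named above were at most 0.41 on the log2 scale. Eomes, with T among the genes that fell in WT, went from 1001.7 and 1063.7 to 139.3 and 91.1 (change -3.18, limma adjusted p = 0.00298). In KO it went from 2157.8 and 741.4 to 409.6 and 247.3, which did not pass (change -1.99, limma adjusted p = 0.0580).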

How the data were processed

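Single-end reads of poly-A libraries were aligned by the authors to mouse build mm9 (NCBI37), and the submitters' processing notes name CASAVA 1.7 and 1.8, TopHat2 2.0.10, HTSeq 0.5.4p3 and DESeq2 1.0.19. Annotation and strand setting of the counting were not given in the sources used here. The values deposited by the authors are a normalised signal, the read count of a gene divided by the size factor of the library, and 100.0% of the values were whole multiples of the value of 1 read (within 0.001 read), from which reads and depth were recovered. Intervals and floors on reads cover counting error only. Positions are from GENCODE M1.

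The 16124 genes whose mean reached 10 normalised counts were tested with limma 3.58.1 (R 4.3.3; eBayes with trend) on log2(normalised count + 1), with 8 group means over 16 libraries (8 residual and 4.27 prior degrees of freedom). This scale understates the change of low genes. DESeq2 1.42.0 and edgeR 4.0.16 served as alternatives on the recovered reads, and an adjusted p that DESeq2 did not give was left out. The fits were tested on simulated counts with known changes in KO EB8 only. The simulation held no difference between lines, so that it does not cover the wide spread of the members at EB4. All members are named, and for each pathway list the text gives values for at most 3 genes per comparison, those with the smallest adjusted p. The streak signals were Wnt3, Wnt3a, Nodal, Bmp4, Fgf8, Tdgf1, Foxh1, Lefty2, Axin2 and Sp5, and the streak and caudal factors were Eomes, Lhx1, Foxa2, Cdx1, Cdx2, Cdx4, Nkx1-2, Gata6, Snai1 and Hhex. The paraxial genes were Mesp2, Dll1, Dll3, Hes7, Lfng, Ripply2, Meox1, Meox2, Tcf15 and Foxc2, and the lateral and vascular genes were Hand1, Hand2, Foxf1 (in the table as Foxf1a), Gata4, Isl1, Nkx2-5, Tal1, Etv2, Lmo2, Flt1, Tek, Cdh5, Pecam1 and Pdgfra. The members and the lists were chosen with earlier results of these data known. The marker Sox1 was not analysed here. The alternatives were other pseudocounts, filters and scaling, a fit of the compared groups only, the replicate block, edgeR, DESeq2 and the omission of each library.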

Additional observations from a re-analysis of the deposited data

Results flagged for a closer look

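The change from EB5 to EB8 differed between genotypes by an interaction term in the limma fit for 3 genes of the pathway lists. The log2 difference, KO minus WT, was 4.04 for Foxh1 (SE 0.49, limma adjusted p = 0.00488), 3.74 for Nodal (SE 0.44, limma adjusted p = 0.00488) and -2.96 for Dll1 (SE 0.54, limma adjusted p = 0.0286). Foxh1 and Nodal passed in 25 of 25 alternatives. The Dll1 call ended in 8 of 25, namely without any 1 of the 8 libraries compared, with adjusted p-values from 1.43e-05 to 0.117.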

How the results depend on the processing

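With 2 libraries per group, the limits lie in the spread between libraries and, for Mesp1, Msgn1 and Evx1, in the low number of reads. The counts of members that passed moved as follows. DESeq2 gave 1 member for KO against WT at ES and 1 at EB5, 1 from ES to EB4 in KO, 3 from EB4 to EB5 in KO, 2 from EB5 to EB8 in WT, 1 in KO, and 1 for the genotype difference from EB5 to EB8. A pseudocount of 0.1 gave 1 (Evx1) at EB5 and 1 for that genotype difference. From EB5 to EB8 in WT the count was 0 with a pseudocount of 5, no filter, a mean of at least 50 or edgeR. A fit of the compared groups only gave 1 from EB4 to EB5 in WT and 0 in KO. With 1 library left out the counts ran from 0 to 1 for KO against WT at EB4 (1, Evx1, without WT EB4 replicate 2) and at EB5 (1 without either WT EB4 library), and from 0 to 1 for the genotype difference from EB5 to EB8 (1 without either WT EB4 library). They ran from 1 to 3 from EB4 to EB5 in WT (1 without WT EB4 replicate 2 or either WT EB5 library) and from 1 to 3 in KO (3 without WT EB4 replicate 1, 2 without WT EB4 replicate 2). They ran from 0 to 2 from EB5 to EB8 in WT (0 without any 1 of the 4 WT libraries compared, 2 without either KO EB5 library). Where a group was left with 1 library, that library was assumed to vary like the other groups. At a mean of at least 50, Tbx6, Gsc and Evx1 were not tested. The omission of a library outside a comparison left its log2 change as it was. Such an omission could act only through the estimated spread and the adjustment over genes. The cause of the other moves was not tested.

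The direction of some changes that had not passed the test turned. For KO against WT at EB4, edgeR and DESeq2 gave -0.21 and -0.22 for T and 0.32 and 0.32 for Gsc. Upper-quartile rescaling gave 0.16 for Tbx6 at EB8, and a pseudocount of 5 gave -0.14 for the genotype difference of Foxc1 from EB4 to EB5. With 1 library left out, the log2 change of KO against WT at ES ran from -0.17 to 0.43 for Tbx6, -0.041 to 1.76 for Gsc and -2.77 to 0.054 for Kdr. At EB4 it ran from -1.45 to 1.55 for T, -1.23 to 2.23 for Mixl1, -0.61 to 1.03 for Tbx6, -1.24 to 1.10 for Gsc and -0.59 to 3.29 for Evx1. At EB5 it ran from -1.84 to 0.53 for Mixl1, -1.98 to 0.15 for Foxc1 and -1.55 to 0.14 for Kdr, and at EB8 from -0.69 to 0.58 for Tbx6, -0.044 to 2.15 for Gsc and -0.85 to 1.19 for Kdr. The genotype difference from EB4 to EB5 ran from -0.56 to 2.45 for T, -1.004 to 1.12 for Foxc1 and -0.093 to 3.79 for Evx1. The cause was not tested.

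The replicate numbers were checked for pairing by the correlation across genes of the difference between replicates. Between genotypes it was 0.33 at ES, -0.06 at EB4, -0.21 at EB5 and -0.13 at EB8, so that at the embryoid body stages the libraries share only a number. WT ES also gave 0.28 with KO EB4, 0.37 with KO EB5 and 0.06 with KO EB8, so that this cannot be said at ES. Within WT the correlation was 0.52 to 0.61 among the embryoid body stages but -0.18 to -0.05 between ES and these, and within KO it was 0.23 to 0.42. The replicate block changed no count of members (0 at each stage for KO against WT, with 986 genes becoming 1363 at EB4 and 3697 becoming 4081 at EB8). Within genotype, the block gave 2 members (Mixl1 and Foxc1) from EB4 to EB5 in KO. With the KO numbers exchanged, an alternative chosen after seeing the data, 0 members and 1000 genes passed at EB5 (983 with the numbers as given) and 0 members and 4154 genes at EB8. Among the pathway lists, the counts at EB5 of 1 for streak and caudal factors and 1 for paraxial genes ran from 0 to 3 and 0 to 2 with 1 library left out.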
